A study of Mus musculus with 12 samples.

Results

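A set of well-studied immediate early genes were followed in mouse neurons with and without the kinase inhibitor Y-27632: Fos, Fosb, Junb, Egr1, Egr2, Arc, Npas4, Nr4a1, Ier2 and Dusp1. They were chosen by name, as a list of symbols matched to Ensembl gene identifiers, and are 10 of the 33560 genes with counts. RNA came from neurons, labelled glutamatergic neurons, that were grown from mouse embryonic stem cells and collected at day 21 in vitro. The cells were wild type (WT, labelled Daam1-MIC_WT) or carried the knockout of a microexon of Daam1 (KO, labelled Daam1-MIC_KO), and Daam1 encodes a formin that builds actin filaments. Cultures received 10 µM of the kinase inhibitor Y-27632 (labelled ROCKi), or water as vehicle, each for 2 h. Each of the 4 groups held 3 libraries, 1 from each of 3 numbered cell lines per genotype, and every line gave both a vehicle and an inhibitor library. No stimulus, such as depolarization, and no other allele or agent is named for any group, and how the lines were derived is not given in the sources used here. The text of the series speaks of hippocampus, but every sample is described as cultured neurons, and that description was followed.

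Immediate early genes are transcribed within minutes of a stimulus without a need for new protein. In neurons, calcium entering through synaptic receptors and voltage-gated channels activates kinases that act on CREB, on SRF with its partners, and on MEF2 at their promoters. Most of their products are transcription factors that switch on a later wave of genes, while Arc acts directly at synapses and Dusp1 ends the signalling that induced it. SRF is also governed by actin through its coactivator MRTF, which is released when actin polymerizes, and formins promote polymerization.

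Of the 10 genes, 7 had a promoter sequence from RefSeq (GRCm38.p6) that could be shown here, and stretches of these are given because they hold the kinds of site through which activity is known to reach such genes. Capitals mark the CRE core, the letters TGACG on either strand, from the site bound by CREB, and in Egr2 also the CArG box, the site bound by SRF. All run from 5′ to 3′ on the strand of the gene. They lie at chr12:85473740-85473889 (Fos, plus strand), chr7:19310052-19310145 (Fosb, minus), chr8:84978749-84978878 (Junb, minus), chr10:67537719-67537868 (Egr2, plus, the third of its 5 starts), chr19:4990131-4990156 (Npas4, minus), chr15:101266746-101266845 (Nr4a1, plus) and chr17:26508520-26508672 (Dusp1, minus).
Fos: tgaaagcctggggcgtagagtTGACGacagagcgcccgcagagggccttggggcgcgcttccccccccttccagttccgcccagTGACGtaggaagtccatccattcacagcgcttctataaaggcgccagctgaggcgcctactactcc
Fosb: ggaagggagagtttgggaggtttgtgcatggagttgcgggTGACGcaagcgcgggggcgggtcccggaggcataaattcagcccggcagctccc
Junb: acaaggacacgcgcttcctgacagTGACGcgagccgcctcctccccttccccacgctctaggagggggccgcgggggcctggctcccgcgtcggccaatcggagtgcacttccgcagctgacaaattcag
Egr2: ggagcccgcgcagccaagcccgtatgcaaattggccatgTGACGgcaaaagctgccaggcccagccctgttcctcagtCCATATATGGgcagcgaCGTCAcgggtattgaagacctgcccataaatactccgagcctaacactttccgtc
Npas4: gttcgaCGTCAcgggaTGACGtcgga
Nr4a1: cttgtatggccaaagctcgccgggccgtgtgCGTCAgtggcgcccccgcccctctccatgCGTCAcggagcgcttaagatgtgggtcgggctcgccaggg
Dusp1: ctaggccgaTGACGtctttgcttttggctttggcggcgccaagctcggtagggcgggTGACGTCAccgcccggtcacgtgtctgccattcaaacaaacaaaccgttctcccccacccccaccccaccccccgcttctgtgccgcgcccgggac

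Within the 250 bases before a start, a CRE core was found for 7 of these 7 genes, against 17.8% of the 32851 promoter windows of the same length. In Egr2 it stood before 3 of the 5 annotated starts, whose windows overlap and hold the same 2 sites. A gene was counted where any of its starts had a match, while the background counts single windows. The full CRE, TGACGTCA, which contains that core on both strands, was found in Dusp1 alone, from -143 to -136, and in 1.55% of all windows. The CArG box was likewise found in 1 gene, Egr2, before 4 of its 5 starts, and in 1.47% of all windows. For 3 of these 4 starts it was the same site, in overlapping windows. A GC box, GGGCGG, was present in 6 genes and in 32.7% of windows, and the TATA box letters TATAAA in Fos alone, from -33 to -28, and in 12.4% of windows. None of the 7 windows held the AP-1 site TGANTCA, present in 6.75% of all windows. The Npas4 stretch also lies in an exon annotated for another transcript. All motifs were searched on both strands, and a match describes letters only.

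The library totals ran from 23253566 to 35012561 counts. The inhibitor library of KO line 3 stood apart from the others, at 163 on the first principal component, with a median correlation of 0.854 to the rest, against 0.953 to 0.986 for the other 11. The vehicle library of WT line 2 (68.1) and the inhibitor library of WT line 3 (60.3) came next. Results that moved most with them are also given without them. Among glutamatergic markers, Slc17a6, the vesicular glutamate transporter of subcortical neurons, was at 58.8 to 102 cRPKM (a read count divided by the length of the gene and the size of the library) in 11 libraries and at 13.4 in the inhibitor library of KO line 3. Slc17a7, Neurod6, Tbr1 and Neurod2, which mark cortical excitatory neurons, did not exceed 0.70 cRPKM in any library. Gad1, the enzyme that makes GABA, was at 27.8 to 76.3 cRPKM, and Slc32a1, the vesicular GABA transporter, at 20.2 to 73.5. Among other markers of inhibitory neurons, Gad2 was at 13.4 to 40.3 cRPKM, and Dlx1, Dlx2 and Dlx5 were at no more than 0.29, 0.22 and 0.19. In the inhibitor library of KO line 3 the summed astrocyte markers reached 346 cRPKM, against 30.7 to 92.4 elsewhere. Of that sum, Gfap held 244 cRPKM. Gfap, Aqp4, Aldh1l1, Slc1a3 and S100b were each highest in that library, and Slc1a2 was lowest, at 6.6 against 9.0 to 14.31 elsewhere. The progenitor markers reached 101 there, against 3.06 to 44.2. The glutamatergic sum of that library was 25.6, against 69.6 to 111 elsewhere, and its GABAergic sum 61.9, against 125 to 178. Mesenchymal markers ran from 21.9 to 246 cRPKM in WT libraries and from 5.53 to 27.1 in KO libraries, microglial markers from 0.19 to 3.69, and pluripotency markers from 0.50 to 12 over all libraries. Of the highest microglial sum Csf1r held 3.58 cRPKM, and Cx3cr1, Aif1 and P2ry12 did not exceed 0.01, 0.4 and 0.02 in any library. Of the highest pluripotency sum Dppa5a held 9.26 and Zfp42 2.51, and Pou5f1 and Nanog did not exceed 0.26 and 0.15 in any library. In these bulk libraries, fewer cells of a type and less RNA per cell cannot be told apart. Gene-level counts do not resolve a microexon, so the genotypes could not be checked on Daam1 itself.

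All 10 genes passed the filter on low counts that left 15443 genes for testing. Their levels per length spread over a wide range, with Fos and Egr1 the highest at means of 11.3 and 10.1 cRPKM over the 12 libraries. Junb followed at 7.55, Dusp1 at 6.15, Nr4a1 at 5.93, Arc at 4.56 and Ier2 at 4.41 cRPKM. Npas4 and Fosb lay lower, at 1.38 and 1.36, and Egr2 was lowest at 0.18 cRPKM, with 5 to 37 counts per library. The median tested gene had a mean of 7.20 cRPKM, so that Fos stood at the percentile 61.6 of tested genes, Npas4 at 22.8 and Egr2 at 4.05.

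Several neighbours in this order were not separated. Fos exceeded Egr1 in 8 of 12 libraries, Dusp1 exceeded Nr4a1 in 7, and Npas4 exceeded Fosb in 8. Junb over Dusp1 and Arc over Ier2 held in 9 libraries each. The steps from Egr1 to Junb, from Nr4a1 to Arc and from Ier2 to Npas4 held in 11 each, and Fosb exceeded Egr2 in 12 of 12. Nr4a1 and Dusp1 were the steadiest across libraries, with a highest level 1.71 and 1.94 times the lowest, whereas Ier2 spanned 9.54-fold and Npas4 6.96-fold.

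**Figure D1:**
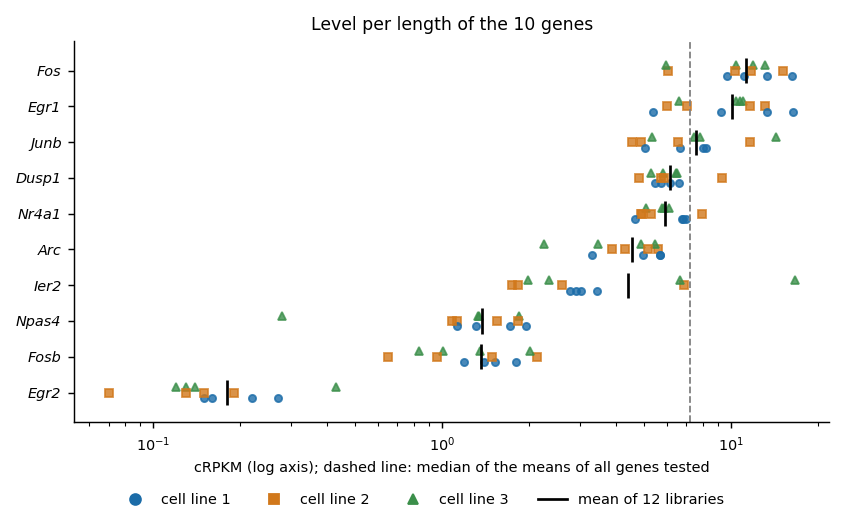
Level per length (cRPKM, log axis) of the 10 genes, with 1 point per library shaped and coloured by cell line number, a black bar for the mean of 12 libraries, and a dashed line at the median of the means of all genes tested (7.20). Fos, Egr1 and Junb have means above the dashed line, Egr2 lies far below the rest, and Ier2 and Npas4 each have 1 library of line 3 far from the others.

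Fos, Fosb and Junb encode subunits of AP-1, the dimeric transcription factor that drives many late response genes. Fos (ENSMUSG00000021250, chr12:85473890-85477273, plus strand) was at 19.5, 32.2 and 21.1 CPM in WT vehicle (lines 1, 2 and 3), where CPM is the read count put on one scale for all libraries by TMM factors. It was at 22.8, 24.6 and 27.3 in WT inhibitor, at 28.4, 12.5 and 25.2 in KO vehicle, and at 33.3, 21.5 and 11.6 CPM in KO inhibitor. The widest gap lay within a group, the KO inhibitor libraries of lines 1 and 3, and all 4 groups overlapped. The fitted log2 difference between inhibitor and vehicle was 0.04 ± 0.39 (SE) in WT and 0.01 ± 0.39 in KO (edgeR adjusted p of 1.00 and 0.994). Between KO and WT it was -0.14 ± 0.39 in vehicle and -0.17 ± 0.39 in inhibitor (edgeR adjusted p of 0.999 and 0.905).

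Fosb (ENSMUSG00000003545, chr7:19302696-19310051, minus strand), a close relative of Fos known for a long-lived truncated isoform that builds up with repeated stimulation, was much scarcer. It was at 5.09, 8.26 and 3.69 CPM in WT vehicle, 4.44, 5.62 and 7.57 in WT inhibitor, 5.86, 2.42 and 3.18 in KO vehicle, and 6.66, 3.64 and 4.74 in KO inhibitor. Again the groups overlapped. After inhibitor the log2 difference was 0.05 ± 0.42 in WT and 0.39 ± 0.42 in KO, and KO lay at -0.57 ± 0.42 against WT in vehicle (edgeR adjusted p of 1.00, 0.585 and 0.999). In inhibitor KO lay at -0.23 ± 0.42 against WT (0.884).

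Junb (ENSMUSG00000052837, chr8:84974484-84978718, minus strand), a Jun family partner of Fos, was at 11.5, 21.1 and 9.24 CPM in WT vehicle and 8.87, 8.09 and 13.8 in WT inhibitor. It was at 14.6, 8.65 and 13.4 in KO vehicle and 14.4, 11.7 and 23.8 CPM in KO inhibitor. Its highest values were those of 2 libraries that stood apart, the inhibitor library of KO line 3 and the vehicle library of WT line 2, and the groups overlapped. The log2 difference after inhibitor was -0.44 ± 0.38 in WT and 0.45 ± 0.38 in KO, and between KO and WT it was -0.19 ± 0.38 in vehicle and 0.69 ± 0.39 in inhibitor (edgeR adjusted p from 0.541 to 1.00). In WT it was -0.04 without the vehicle library of line 2 and -0.72 without the inhibitor library of line 3. Without the inhibitor library of KO line 3 the difference after inhibitor in KO was 0.10 ± 0.37, and between KO and WT in inhibitor 0.35 ± 0.37. Junb lies on the strand opposite to Prdx2, which it overlaps and which held 5528 to 8889 counts, and it is not stated whether counting used the strand, so the Junb values are uncertain.

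Egr1 and Egr2 are zinc finger transcription factors of the same family, of which Egr1 is a standard marker of recently active neurons. Egr1 (ENSMUSG00000038418, chr18:34859823-34864984, plus strand) was at 40.1, 60.0 and 28.8 CPM in WT vehicle and 23.7, 27 and 49.3 in WT inhibitor. It was at 74.8, 31.5 and 48.7 in KO vehicle and 58.6, 52.3 and 43.5 in KO inhibitor. Thus 2 of the 3 WT inhibitor libraries were lower than all others, while the third reached the KO values. After inhibitor Egr1 differed by -0.37 ± 0.38 in WT and -0.0046 ± 0.38 in KO (edgeR adjusted p of 1.00 and 0.994). KO lay above WT by 0.27 ± 0.38 in vehicle and 0.63 ± 0.38 in inhibitor (edgeR adjusted p of 0.999 and 0.856).

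Egr2 (ENSMUSG00000037868, chr10:67535475-67542188, plus strand), better known for its part in Schwann cells and hindbrain, had few counts. Its counts were 13, 15 and 11 in WT vehicle, 13, 12 and 12 in WT inhibitor, 18, 5 and 9 in KO vehicle, and 25, 13 and 37 in KO inhibitor. Of the 10 genes, Ier2 alone had wider standard errors in the 4 comparisons between groups. The log2 difference after inhibitor was -0.12 ± 0.48 in WT and 0.91 ± 0.48 in KO (edgeR adjusted p of 1.00 and 0.474). Without the inhibitor library of KO line 3, which held the highest count, the difference in KO was 0.48 ± 0.48. Between KO and WT the difference was -0.16 ± 0.49 in vehicle and 0.87 ± 0.47 in inhibitor (edgeR adjusted p of 0.999 and 0.856), the latter 0.44 ± 0.48 without that library.

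Npas4, a transcription factor found almost solely in neurons and induced by calcium entry rather than by growth factors, was the gene of the 10 whose groups were best separated. Npas4 (ENSMUSG00000045903, chr19:4984355-4990316, minus strand) was at 5.44, 3.78 and 5.88 CPM in WT vehicle and 4.21, 5.05 and 4.33 in WT inhibitor. It was at 6.48, 5.97 and 4.43 in KO vehicle and 3.63, 3.53 and 0.859 CPM in KO inhibitor, from 116, 122 and 27 counts. The 3 KO inhibitor libraries were the 3 lowest of the 12, so that they overlapped neither with KO vehicle, where 8.84% of all genes tested showed no overlap, nor with WT inhibitor, where 10.5% did. The 2 comparisons share the KO inhibitor libraries.

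For Npas4 the log2 difference between inhibitor and vehicle in KO was -1.07 ± 0.45, with an unadjusted p of 0.0403 in edgeR and an adjusted p of 0.474, so it did not pass. It was lower in 3 of 3 KO lines. Without the inhibitor library of KO line 3 it was -0.65 ± 0.24 (edgeR unadjusted p of 0.0226, adjusted p of 1.00), and without the 3 libraries that stood apart -0.64 ± 0.20 (0.0108 and 0.974). With the cell line as a block it was -1.29 ± 0.42 (edgeR unadjusted p of 0.0218, adjusted p of 0.640). In WT it stood at -0.15 ± 0.45 (edgeR adjusted p of 1.00), and 1 of 3 lines was higher. The difference between these 2 responses, the interaction, was -0.92 ± 0.64 and did not pass (edgeR adjusted p of 0.808), and it was -0.32 ± 0.29 without the 3 libraries. KO lay at 0.16 ± 0.45 against WT in vehicle and at -0.76 ± 0.45 in inhibitor (edgeR adjusted p of 0.999 and 0.856), the latter at -0.34 ± 0.24 without the inhibitor library of KO line 3.

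The levels of Npas4 and Ier2 were set beside the marker sums, and both had their most extreme value in the inhibitor library of KO line 3. That was not particular to them, since Junb and Egr2 were also highest there, and Fos and Arc lowest. Of all genes tested, 38.4% were highest and 39.0% lowest in that library. There Npas4 was at 0.28 cRPKM, against 1.08 to 1.95 in the other 11 libraries, while the glutamatergic sum was also lowest. In the KO inhibitor libraries of lines 1 and 2, where Npas4 was at 1.13 and 1.08 cRPKM, the glutamatergic sum was 92.8 and 111 and the GABAergic sum 178 and 170, within or above the range of the vehicle libraries. The part of neuron content in the Npas4 values was not tested.

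**Figure D2:**
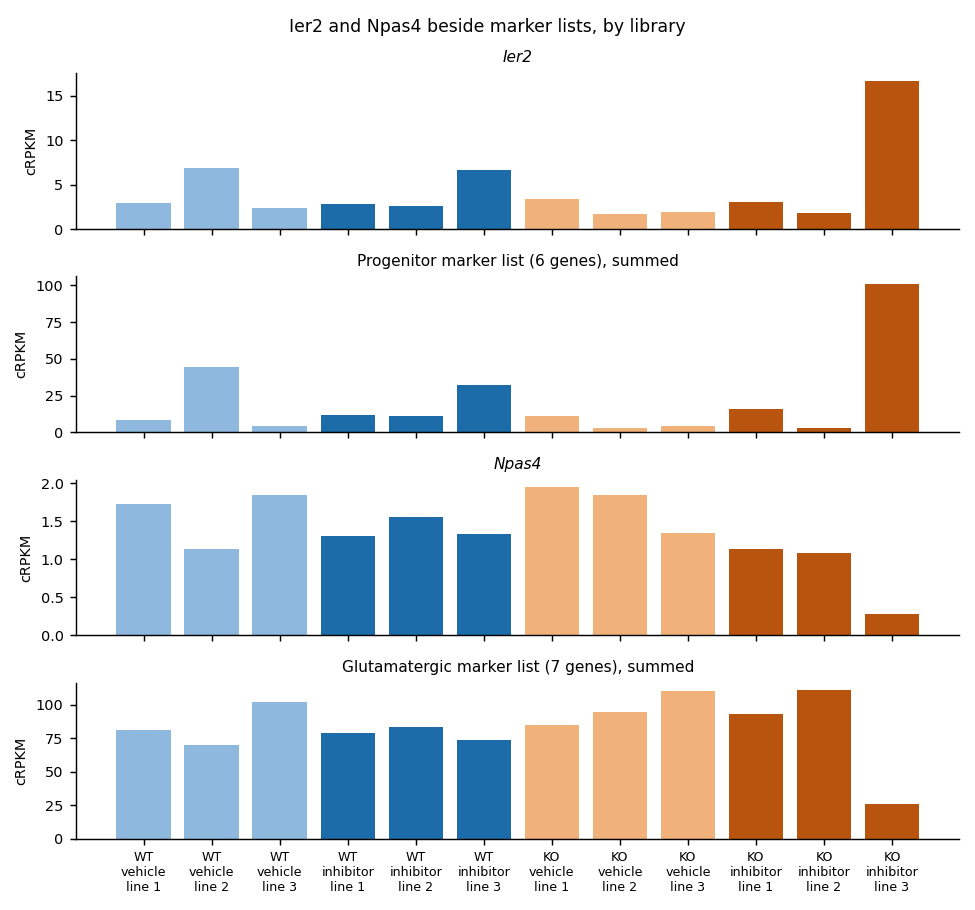
Level (cRPKM, bars from 0) of Ier2, the summed progenitor markers (6 genes), Npas4 and the summed glutamatergic markers (7 genes) in each of the 12 libraries, coloured by group. In the inhibitor library of KO line 3, at the right, Ier2 (16.7) and the progenitor sum (101) are highest and Npas4 (0.28) and the glutamatergic sum (25.6) lowest.

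Nr4a1 (ENSMUSG00000023034, chr15:101254269-101274795, plus strand), an orphan nuclear receptor, varied little. It was at 16.1, 19.9 and 12.1 CPM in WT vehicle, 11.2, 13.0 and 14.9 in WT inhibitor, 17.5, 11.9 and 14.3 in KO vehicle, and 16.4, 12.1 and 13.4 in KO inhibitor. After inhibitor the log2 difference was -0.30 ± 0.22 in WT and -0.06 ± 0.22 in KO, and between KO and WT it was -0.14 ± 0.22 in vehicle and 0.10 ± 0.22 in inhibitor (edgeR adjusted p from 0.869 to 1.00). Its biological coefficient of variation, the spread between libraries of 1 group beyond counting error, was 0.244, against a median of 0.289 over all genes.

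Arc (ENSMUSG00000022602, chr15:74669083-74672570, minus strand) encodes a synaptic protein that promotes the removal of AMPA receptors and is the one member of the set that acts mainly at synapses. It was at 14.6, 17.3 and 10.3 CPM in WT vehicle, 9.93, 11.8 and 14.7 in WT inhibitor, 17.6, 13.0 and 16.8 in KO vehicle, and 17.0, 15.7 and 6.36 in KO inhibitor. The inhibitor library of KO line 3 was the lowest of all 12, and the other 5 KO libraries lay between 13.0 and 17.6 CPM. The log2 difference after inhibitor was -0.21 ± 0.35 in WT and -0.28 ± 0.35 in KO, the latter 0.05 ± 0.24 without that library (edgeR adjusted p of 1.00, 0.627 and 1.00). KO against WT stood at 0.17 ± 0.35 in vehicle and 0.10 ± 0.35 in inhibitor (0.999 and 0.936).

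Ier2 (ENSMUSG00000053560, chr8:84661331-84662852, minus strand), a nuclear protein of the growth factor response, had the largest spread, with a coefficient of variation of 0.662, above that of 90.1% of genes tested. It was at 4.20, 10.5 and 3.40 CPM in WT vehicle, 4.08, 3.89 and 9.91 in WT inhibitor, 5.20, 2.6 and 2.98 in KO vehicle, and 4.44, 2.75 and 23.2 in KO inhibitor. The 3 high values belong to the 3 libraries that stood apart, which also had the 3 highest progenitor sums (101, 44.2 and 32.1 cRPKM), and the other 9 libraries lay between 2.6 and 5.20 CPM. The log2 difference after inhibitor in KO was 1.49 ± 0.80 (edgeR adjusted p of 0.474) and -0.00067 ± 0.59 without the inhibitor library of KO line 3. In WT it was -0.01 ± 0.79, and KO against WT stood at -0.74 ± 0.79 in vehicle and 0.76 ± 0.79 in inhibitor (edgeR adjusted p of 1.00, 0.999 and 0.856). Without that library the last value was -0.73 ± 0.60. Without all 3 libraries these 4 differences ran from -0.11 to 0.05. The part of progenitor-like RNA in the Ier2 values was not tested.

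Dusp1 (ENSMUSG00000024190, chr17:26505590-26562128, minus strand) encodes a phosphatase that switches off MAP kinases and so limits the response that induced it. It was at 11.7, 18.7 and 11.1 CPM in WT vehicle, 10.6, 11.3 and 10.4 in WT inhibitor, 11.5, 9.39 and 12.8 in KO vehicle, and 12.7, 11.5 and 11.9 in KO inhibitor. Apart from the vehicle library of WT line 2, all values lay between 9.39 and 12.8 CPM. The KO inhibitor libraries all exceeded the WT inhibitor libraries, and 10.5% of all genes tested showed no overlap there, in either direction. The log2 difference was 0.17 ± 0.21 and did not pass (edgeR adjusted p of 0.856). After inhibitor the difference was -0.37 ± 0.21 in WT and 0.10 ± 0.21 in KO (edgeR adjusted p of 1.00 and 0.756), and the former was -0.09 ± 0.15 without the 3 libraries that stood apart. In vehicle KO stood at -0.30 ± 0.21 against WT (0.999), and at -0.02 ± 0.13 without them. Dusp1 overlaps Ergic1 on the opposite strand, which held 2478 to 3783 counts, so its values are uncertain in the same way as those of Junb.

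**Figure D3:**
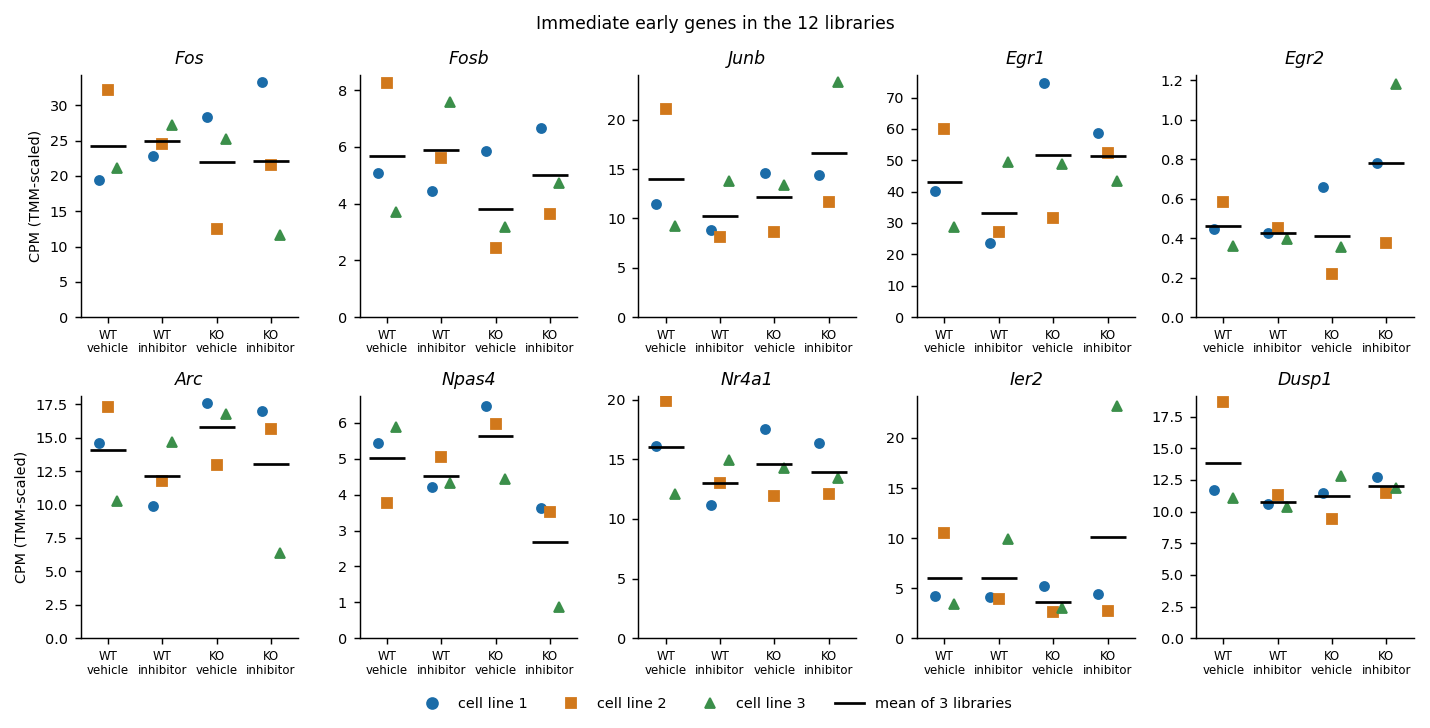
CPM (scaled with TMM factors, linear axes from 0, 1 panel per gene) in the 4 groups, with 1 point per library marked by cell line number and a bar at the mean of 3. The groups overlap for most genes, the 3 KO inhibitor points of Npas4 lie below those of WT inhibitor and KO vehicle, and 1 KO inhibitor point of Ier2 (23.2 CPM) lies far above the rest.

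The comparisons were then read over the set, from 1 fit over all genes tested. In WT neurons, 2 h of inhibitor left 0 of the 10 genes past an adjusted p below 0.05 in edgeR, where 0% of all genes passed, and 0 at an unadjusted p below 0.05, where 0.304% of genes did. Of the 10, 2 had a higher and 8 a lower fitted level, with a median log2 difference of -0.18, against 0.01 over all genes. That median was -0.05 without the vehicle library of WT line 2, with 4 higher, and -0.35 and -0.36 without the vehicle and inhibitor libraries of WT line 3, with 0 higher, as also without the vehicle library of WT line 1 (-0.20). In 0 of the 10 did the inhibitor and vehicle libraries fail to overlap, against 5.97% of all genes.

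In KO neurons the inhibitor also left 0 of the 10 genes past the threshold (0% of all genes), and 1, Npas4, at an unadjusted p below 0.05, against 7.05% of all genes, a share that was 1088 genes with all libraries and 180 without the inhibitor library of KO line 3. Fitted levels were higher in 6 and lower in 4, with a median of 0.05, against -0.02 over all genes, and with 1 library left out the median ran from -0.10 (without the vehicle library of KO line 2, 4 higher) to 0.29 (without that of line 1, 8 higher). Npas4 was the 1 gene of the 10 without overlap between the groups, a share near the 8.84% of all genes. Over both genotypes the inhibitor left 0 of the 10 past the threshold (0% of all genes) and 0 at an unadjusted p below 0.05 (1.13% of all genes), with 5 higher and 5 lower. The higher ones were Ier2, at 0.74 ± 0.56, Egr2, at 0.39 ± 0.34, Fosb, at 0.22 ± 0.29, Fos, at 0.02 ± 0.28, and Junb, at 0.0017 ± 0.27. Npas4, at -0.61 ± 0.32, was lowest, followed by Arc, at -0.24 ± 0.25, Egr1, at -0.19 ± 0.27, Nr4a1, at -0.18 ± 0.16, and Dusp1, at -0.13 ± 0.15. The edgeR adjusted p was 0.767 for 7 of these, 0.769 for Egr1, 0.971 for Fos and 0.997 for Junb. Ier2 was at -0.0067 ± 0.39, Egr2 at 0.18 ± 0.33 and Npas4 at -0.40 ± 0.16 (edgeR unadjusted p of 0.0312, adjusted p of 0.9998) without the inhibitor library of KO line 3.

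The interaction, in which the response in WT is subtracted from that in KO, was positive for 7 of the 10 genes with a median of 0.35, against -0.01 over all genes. With 1 library left out the median ran from 0.09 (without the vehicle library of WT line 2) to 0.60 (without that of KO line 1), and it was 0.11 without the vehicle library of KO line 2, 0.17 without the inhibitor library of WT line 1, 0.18 without that of KO line 1 and 0.58 without the vehicle library of WT line 3. It passed for 0 of them (0% of all genes) and reached an unadjusted p below 0.05 for 0 (1.2% of all genes). Ier2 had the highest value, 1.51 ± 1.12, which was 0.01 ± 0.79 without the inhibitor library of KO line 3, and Egr2 came next at 1.03 ± 0.68, which was 0.60 ± 0.66 without it. Junb followed at 0.89 ± 0.54, Dusp1 at 0.47 ± 0.29, Egr1 at 0.36 ± 0.54, Fosb at 0.34 ± 0.59 and Nr4a1 at 0.24 ± 0.31. Npas4, at -0.92, Arc, at -0.07 ± 0.49, and Fos, at -0.03 ± 0.56, were negative, and the edgeR adjusted p of the 10 ran from 0.808 to 0.983. The response of Junb was -0.44 in WT and 0.45 in KO, and that of Dusp1 -0.37 and 0.10. Egr1 differed by -0.37 in WT and by -0.0046 in KO. The interaction rests on all 4 groups, so that it shares libraries with each of the other comparisons.

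Between genotypes, KO against WT in vehicle gave 0 of the 10 genes past the threshold (0% of all genes), 0 at an unadjusted p below 0.05 (1.99% of all genes) and 0 without overlap (12.5%). In it 3 genes were higher and 7 lower, with a median of -0.15, against -0.01 over all genes. Without the 3 libraries that stood apart 6 were higher, and the median was 0.04. With 1 library left out it ran from -0.33 (without the vehicle library of KO line 1) to 0.06 (without that of KO line 2), and it was 0.03 without the vehicle library of WT line 2 and -0.31 without that of WT line 3. In inhibitor, KO against WT gave 0 of the 10 past the threshold (0%), 0 at an unadjusted p below 0.05 (3.5%), and 2 without overlap, Npas4 lower and Dusp1 higher, against 10.5% of all genes. There 7 were higher and 3 lower, with a median of 0.13, which ran from 0.04 (without the inhibitor library of KO line 1) to 0.23 (without that of WT line 3) and was 0.08 without the inhibitor library of WT line 1. Without the 3 libraries 3 of the 10 had an unadjusted p below 0.05 in edgeR, as did 9.71% of all genes in that fit: Egr1 at 1.17 ± 0.35, Junb at 0.66 ± 0.22 and Arc at 0.63 ± 0.19, with adjusted p of 0.428, 0.447 and 0.402, so that none passed. With the same 12 libraries DESeq2 likewise called 0 of the 10 in any of the 6 comparisons, and 2 in KO after inhibitor had an unadjusted p below 0.05, as did 14% of all genes. A p above the threshold does not show that the groups are alike. The p-values of the main fit measure the spread between the libraries of a group, shared over the 4 groups and without a term for the line. In that spread, differences between lines and between cultures of a line are not separated. The labels do not describe how the 3 lines per genotype were derived.

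**Figure D4:**
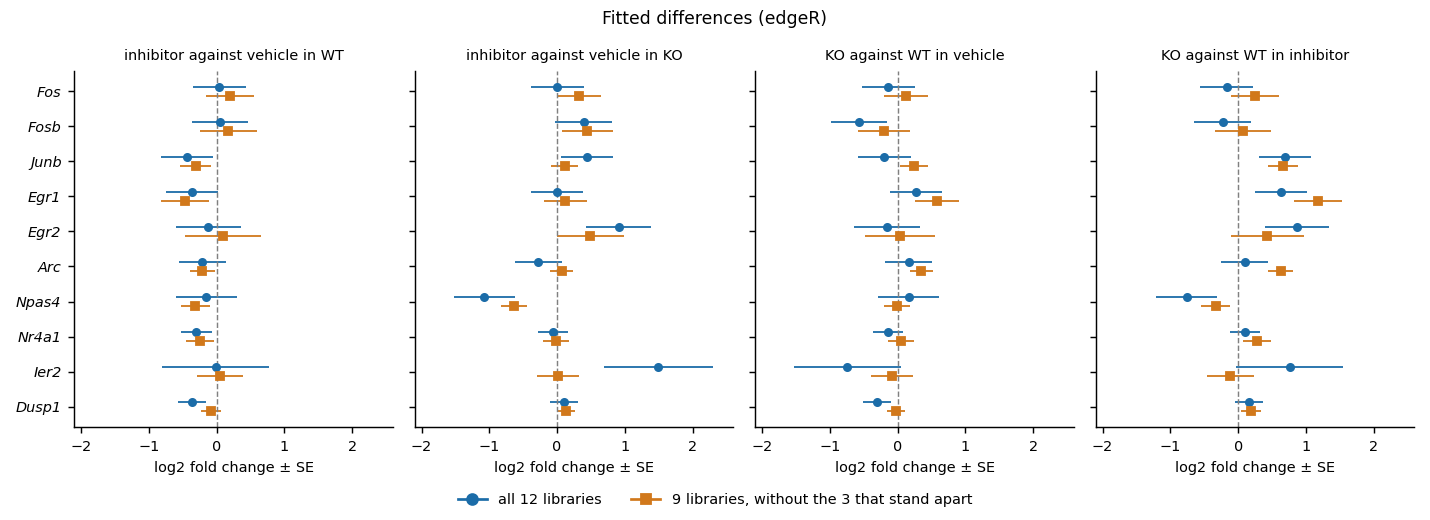
Fitted log2 fold change ± SE (edgeR) of the 10 genes in 4 comparisons, with all 12 libraries (blue circles) and with the 9 left after removing the 3 that stood apart (orange squares). With all libraries the differences lie between -1.07 and 1.49, Ier2 moves from 1.49 to 0.01 in KO after inhibitor, and Npas4 is the gene farthest below 0 there with both sets.

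Because each line gave both treatments, the response could also be read line by line, as the log2 ratio of inhibitor to vehicle after adding 0.5 CPM to each, which understates the ratio of the low genes. In WT the lines went different ways: 1 of the 10 genes was higher after inhibitor in line 1, 1 in line 2 and 8 in line 3, with medians of -0.26, -0.56 and 0.43. In KO it was 4, 9 and 4, with medians of -0.03, 0.29 and -0.10. In 4 of the 6 lines, then, 8 or 9 of the 10 genes had the same sign, and that sign differed between lines of 1 genotype. Of all genes tested, 55.7%, 50.2% and 53.9% were higher after inhibitor in WT lines 1, 2 and 3. In the KO lines it was 51.1%, 48.2% and 50.7%. In WT lines 2 and 3, each of which includes 1 of the libraries that stood apart, 10.1% and 11.9% of all genes differed by more than 1 on the log2 scale, and in KO line 3 it was 42.8%, against 0.44% to 0.57% in the other 3 lines.

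Fos was at 0.22, -0.38 and 0.36 in WT lines 1, 2 and 3 and at 0.22, 0.75 and -1.08 in KO lines. Egr1 was at -0.75, -1.14 and 0.77 in WT and -0.35, 0.72 and -0.16 in KO. Both thus had each sign within each genotype. Arc, at -0.53, -0.53 and 0.50 in WT and -0.05, 0.26 and -1.33 in KO, did likewise. Npas4 was at -0.33, 0.38 and -0.40 in WT and at -0.76, -0.68 and -1.86 in KO, and was the gene lower in most lines, 5 of 6. Fosb and Egr2 were higher in 3 of 3 KO lines, at 0.17, 0.50 and 0.51 for Fosb and 0.15, 0.29 and 0.98 for Egr2, and in 1 of 3 WT lines each. Dusp1 was lower in 3 of 3 WT lines, at -0.14, -0.70 and -0.10. The share of all genes with the same sign in every line of a genotype was not computed. Junb was at -0.36, -1.33 and 0.56 in WT and -0.02, 0.42 and 0.81 in KO, and Nr4a1 had the smallest values in KO, from -0.09 to 0.02. Ier2 covered the widest range, from -1.32 in WT line 2 to 1.42 in WT line 3 and 2.77 in KO line 3, the 3 lines with a library that stood apart, and was between -0.21 and 0.07 in the other 3.

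**Figure D5:**
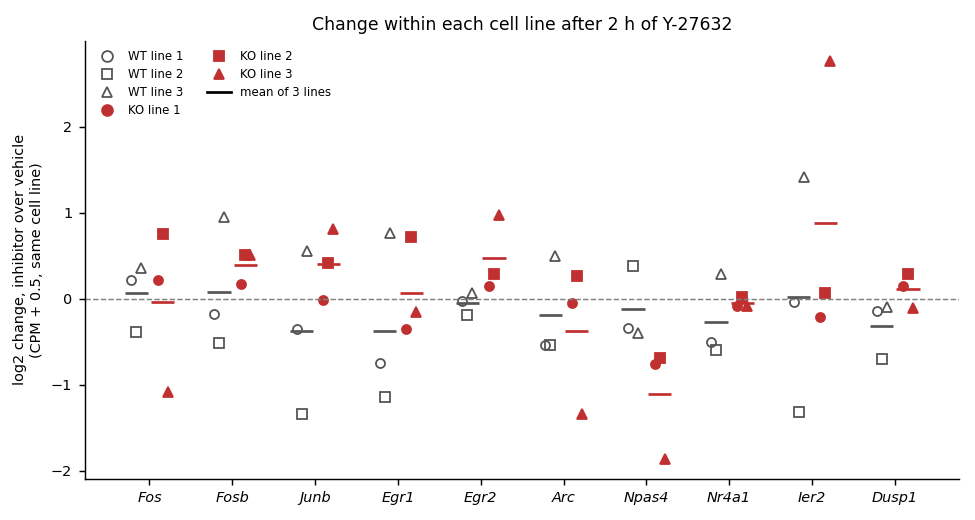
Log2 change from vehicle to inhibitor (0.5 CPM added) within each of the 6 cell lines, with open grey symbols for WT, filled red symbols for KO and a bar at the mean of 3 lines. For most genes the symbols of a genotype fall on both sides of 0, the 3 KO lines of Npas4 all lie below 0, and Ier2 in KO line 3 is at 2.77.

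The 3 lists of related genes were read in the same way, and edgeR called 0 of their genes in each of the 6 comparisons. Of the other primary response genes (39 listed, 38 with counts), 27 were higher and 11 lower in KO after inhibitor, with a median log2 difference of 0.59, and 8 had an unadjusted p below 0.05, as did 7.05% of all genes. In each other comparison 0 or 1 of the 38 did. Without the inhibitor library of KO line 3 the median was 0.20, with 31 higher and 0 at an unadjusted p below 0.05. Of the 38, 21 were highest in that library, or 55.3%, against 38.4% of all genes. In WT the median was -0.01, with 18 higher, and without the vehicle library of WT line 2 it was 0.26, with 30 higher. Klf4, a Krüppel-like transcription factor, was at 1.95 ± 1.03 after inhibitor over both genotypes, and Amigo3, an adhesion protein, at 0.78 ± 0.40 (edgeR adjusted p of 0.767 for both). They were at 0.50 ± 0.84 and 0.34 ± 0.29 without the inhibitor library of KO line 3. Klf4 was at 166 CPM in the inhibitor library of KO line 3, at 45.1 and 48.8 in the other 2 libraries that stood apart and at 1.33 to 14.9 in the remaining 9, the same 3 libraries that were highest for Ier2. In vehicle 27 of the 38 were lower in KO than in WT, with a median of -0.29, which was -0.03 with 16 higher without the vehicle library of WT line 2. Among them were Dusp4, another MAP kinase phosphatase, at -0.60 ± 0.21 (edgeR unadjusted p of 0.0187, adjusted p of 0.999), and Ier5 at -0.54 ± 0.25 (0.999). Without the vehicle library of WT line 2 these were at -0.43 ± 0.21 and -0.31 ± 0.23. The KO and WT vehicle values of Dusp4 did not overlap, at 14.4 to 19.3 against 22.4 to 32.3 CPM. Of all genes tested 12.5% showed no overlap in this comparison, and Dusp4 was picked for the smallest p of its list.

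The late response genes, 10 genes such as Bdnf that follow the first wave, had a lower fitted level in 10 of 10 cases in KO after inhibitor, with a median of -0.29 and 0 genes at an unadjusted p below 0.05. Without the inhibitor library of KO line 3 the median was 0.01, with 5 higher. In that library 8 of the 10 were lowest, or 80%, against 39% of all genes. In WT 8 were higher, with a median of 0.09, and without the vehicle library of WT line 2 it was 5, with a median of 0.02. Nrn1, a secreted promoter of neurite growth, was at -0.29 ± 0.30 and Gpr3, a receptor coupled to cyclic AMP, at -0.23 ± 0.34 over both genotypes (edgeR adjusted p of 0.767 and 0.773), and at -0.08 ± 0.17 and 0.0063 ± 0.10 without the inhibitor library of KO line 3. In vehicle, KO against WT, Nptx2, which clusters AMPA receptors, was at -0.38 ± 0.34 and Nrn1 at 0.33 ± 0.43 (0.999 for both).

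The 24 upstream kinases and transcription factors had medians close to 0, with at most 1 gene at an unadjusted p below 0.05 in a comparison. Their median was -0.03 in WT and -0.02 in KO after inhibitor and 0.02 for KO against WT in vehicle, with 9, 7 and 14 genes higher. In KO the count turned on 1 library, since without the inhibitor library of line 3 it was 18 of 24 higher, with a median of 0.05. Elk1 and Elk4 are partners of SRF. Elk1 was at -0.16 ± 0.07 after inhibitor over both genotypes (edgeR unadjusted p of 0.0431, adjusted p of 0.767) and Elk4 at 0.54 ± 0.35 (0.767), which was 0.10 ± 0.21 without the inhibitor library of KO line 3. Mef2c, a MEF2 factor, was at -0.32 ± 0.17 and Crebbp, the coactivator of CREB, at -0.13 ± 0.10 in KO against WT in vehicle (0.999 for both).

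The genes with the pattern most like that of Fos over the 12 libraries, among tested genes with a mean of at least 1 CPM, were Spry4 (Pearson r of 0.914 on log2 CPM), Arl5b (0.904), Mttp (0.876), Egr4 (0.875) and Ptprm (0.868). Over the 11 libraries without the inhibitor library of KO line 3 these were 0.856, 0.837, 0.789, 0.814 and 0.780. Most like the mean of the 10 genes were Ankrd1 (0.847), Egr3 (0.825), Ankrd50 (0.802), Ddx28 (0.800) and Srf (0.791), at 0.883, 0.830, 0.804, 0.807 and 0.835 over 11 libraries. Egr3 and Egr4 are of the family of Egr1 and Egr2, and Spry4 encodes an inhibitor of MAP kinase signalling. These values describe libraries that share lines and the same scaling, and were picked as the highest of all genes.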

How the data were processed

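Poly(A) RNA was sequenced as strand-specific libraries, per the labels' protocols. For each library the authors deposited a table of 36902 genes with a read count and a cRPKM value, a kind of RPKM whose correction is not described in the sources used here. The deposited values of 3342 genes were NA. The submitters' processing notes name the mm10 build. The aligner, the annotation and any use of the strand in counting are likewise not given. Over 1851 abundant genes the ratio of count to cRPKM followed the library totals.

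The genes and the lists were chosen with earlier results of these data known. Counts were tested with edgeR 4.0.16 in R 4.3.3 (filterByExpr, TMM, robust quasi-likelihood F test, Benjamini-Hochberg adjustment over 15443 genes, threshold 0.05), with all 12 libraries in 1 fit of 4 groups. No p was adjusted over the 10 genes alone. A standard error is the log2 fold change over the root of its F value. The procedure was tested on simulated data. High recovery of known changes was required only at a spread below that of these data, whose common coefficient of variation was 0.411. How large a change it could find at that spread is not given here. The rule for named genes took all 10 genes, with the values a comparison turns on. Of the related lists, called genes or else the 2 with the smallest unadjusted p over both genotypes and for KO against WT in vehicle are named, and for likeness the 5 with the highest r. Dusp1, Junb and the other overlapping genes were left in. Marker lists were glutamatergic, GABAergic, astrocyte, progenitor, mesenchymal, microglial and pluripotency genes. Coordinates are those of GENCODE M21 (GRCm38), and promoters came from a RefSeq table (GRCm38.p6).

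The labels pair the libraries of a line across treatments, and their deviations from the group means correlated at -0.72 to 0.57. No library was a copy of another, with 0 pairs of identical tables. Alternatives were DESeq2 1.42.0, its size factors, library totals, no filter, the compared groups alone, blocks, leaving out each library, and leaving out 3 libraries.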

Additional observations from a re-analysis of the deposited data

How the results depend on the processing

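Over 460 log2 differences and counts under the alternatives and 852 with 1 library or 1 line left out, 0 of the 10 genes passed in any. The lowest edgeR or DESeq2 adjusted p was 0.164. Over all genes edgeR called 0 in the 6 comparisons, whereas DESeq2 called 11 for KO against WT in vehicle and 18 in inhibitor, and leaving out 3 libraries gave 2 and 1. Among the fitted differences, signs changed in 28 values under the alternatives and in 57 with 1 library left out, and not only for differences near 0. Counts have no sign, and means of the within-line changes were not scored for it. With 1 line left out, those means took each sign for Fos, Junb, Egr1, Ier2 and Dusp1. Without the inhibitor library of KO line 3, Ier2 went from 1.49 to -0.00067 in KO after inhibitor. For KO against WT in inhibitor it went from 0.76 to -0.73. The cause of the changes of sign was not tested beyond the libraries named.

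For inhibitor against vehicle in KO, Egr1 turned to 0.014 with DESeq2 size factors, 0.049 with library totals, 0.017 with no filter, 0.014 with DESeq2 and 0.032 with the 2 groups alone. The interaction of Fos turned to 0.018 with library totals and 0.010 with no filter, and Junb over both genotypes to -0.0030 with no filter. With the cell line as a replicate block (paired libraries), Egr1 in KO was 0.070, Fos in KO -0.028 and Ier2 in WT 0.020. The block changed no call. WT and KO libraries share only a replicate number, their deviations correlated at -0.65 to 0.80, and with that number as a block 0 of the 10 passed.

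Leaving out the 3 libraries that stood apart was chosen after seeing the data. It turned, after inhibitor in WT, Egr2 to 0.097 and Ier2 to 0.048, and in KO, Egr1 to 0.12 and Arc to 0.067. Over both genotypes it turned Junb to -0.099 and Dusp1 to 0.019, and in the interaction Fos to 0.13, Arc to 0.28 and Ier2 to -0.033. For KO against WT in vehicle it turned Fos to 0.12, Junb to 0.24, Egr2 to 0.038, Npas4 to -0.0074 and Nr4a1 to 0.049, and in inhibitor Fos to 0.25, Fosb to 0.071 and Ier2 to -0.11.

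With each library left out in turn, the difference after inhibitor in WT ran from -0.098 to 0.26 for Fos, -0.18 to 0.39 for Fosb, -0.28 to 0.046 for Egr2 and -0.59 to 0.62 for Ier2. In KO it ran from -0.42 to 0.31 for Fos, -0.26 to 0.36 for Egr1, -0.52 to 0.052 for Arc, -0.20 to 0.091 for Nr4a1, -0.00067 to 1.93 for Ier2 and -0.013 to 0.21 for Dusp1. Over both genotypes it ran from -0.19 to 0.18 for Fos, -0.17 to 0.21 for Junb and -0.0067 to 1.07 for Ier2, and in the interaction from -0.45 to 0.28 for Fos and -0.31 to 0.26 for Arc. For KO against WT in vehicle it ran from -0.36 to 0.15 for Fos, -0.42 to 0.23 for Junb, -0.099 to 0.58 for Egr1, -0.69 to 0.13 for Egr2, -0.013 to 0.34 for Arc, -0.013 to 0.31 for Npas4 and -0.30 to 0.043 for Nr4a1. In inhibitor it ran from -0.59 to 0.14 for Fos, -0.14 to 0.43 for Arc, -0.039 to 0.20 for Nr4a1 and -0.73 to 1.34 for Ier2. Where 1 library of a group was left out, 2 remained. Low counts limit Egr2 most.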
